A study of Mus musculus with 3 samples.

Results

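The Hox genes encode the transcription factors that give cells along the body axis their regional identity. All genes whose name is Hoxa, Hoxb, Hoxc or Hoxd followed by a number were taken, which gave 39 of the 55573 genes listed. Each of the 39 is annotated as protein coding. They were measured by UMI-RNAseq in the mouse fibroblast line NIH3T3, whose cells were grown without treatment in DMEM with serum, detached with trypsin and lysed in TRIzol. In this method a random tag put on each molecule, the UMI, lets copies made by PCR be removed. The dataset holds 3 libraries of this 1 condition, named library 1, library 2 and library 3 after their replicate numbers. Since no source used here tells separate cultures from repeats of one, their SD and any p may measure technical spread alone. Levels are given in FPKM, which divides fragments by gene length and by the library total, so levels of different genes are compared per length.

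Mouse Hox genes lie in 4 clusters on 4 chromosomes, and genes with the same number in different clusters are paralogs that descend from 1 ancestral gene. Within a cluster the genes are ordered as they are used in the embryo, with low numbers expressed toward the head and early, and high numbers toward the tail and late. Fibroblasts of the adult are known to keep part of the Hox pattern of the body site from which they came. On DNA, Hox proteins act together with homeodomain cofactors of the TALE class, the Pbx, Meis and Pknox families.

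Positions are those of GENCODE M21 (GRCm38). The 11 Hoxa genes are on chromosome 6, minus strand, from 52155590 to 52260880, over 105.3 kb. The 10 Hoxb genes lie on the plus strand of chromosome 11, from 96194316 to 96368256, over 173.9 kb. The 9 Hoxc genes span 115.8 kb of the plus strand of chromosome 15, from 102921103 to 103036852. The 9 Hoxd genes span 96.8 kb of the plus strand of chromosome 2, from 74668310 to 74765142.

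The libraries rest on 13959723 to 14423209 counted fragments, and 12919 to 12951 genes reached an FPKM of 1 in a given library. The cell type on the label was compared with marker lists. Of 12 fibroblast markers, 11 were at an FPKM of at least 1 in every library, with a summed level of 9406 to 9518 FPKM per library and fibronectin (Fn1) highest. Lumican (Lum) was listed at 0. The extraction text of the sample labels speaks of retinas. None of 12 retina markers reached an FPKM of 1 in every library, their summed level was 1.09 to 1.76 FPKM per library, and 3 were listed at 0, among them Opn1mw and Nrl. Of 8 epithelium markers, 1 passed the same limit, the keratin gene Krt14 with 8.39 ± 0.291 FPKM (SD, n = 3), and 4 were listed at 0.

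The clusters also carry microRNA genes, short regulatory RNAs that pair with messenger RNAs through a seed at bases 2 to 8. Their mature sequences are shown with the seed in capitals, because Hox messenger RNAs are among the best known targets of the miR-196 family. The sequences are from RefSeq (GRCm38.p6).
miR-196a-5p: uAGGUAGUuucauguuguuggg
miR-196b-5p: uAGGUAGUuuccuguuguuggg
miR-10a-5p: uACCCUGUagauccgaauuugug
miR-10b-5p: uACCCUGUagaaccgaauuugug
miR-615-3p: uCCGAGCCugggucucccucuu
The first pair shares 1 seed and the miR-10 pair another, while miR-615 stands alone.

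In the 3′ untranslated regions of GENCODE M21, the letters ACTACCT, which pair with the miR-196 seed, were present in 9 of 39 Hox genes (23.1%) and in 7.53% of 21731 protein-coding genes. Only the messenger RNA strand was searched. Hoxa7 held 4 such matches and Hoxc8 held 2, while Hoxa4, Hoxa5, Hoxa9, Hoxb1, Hoxb6 and Hoxb7 were among those that held 1 each. The miR-10 match ACAGGGT was found in 4 Hox genes (10.3%) and in 13.7% of protein-coding genes, and the miR-615 match GGCTCGG in 1 Hox gene (2.56%), Hoxb4, and in 3.17%. A match is a description of the letters and not a site of action.

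Hoxb8 has no 7-base match to the miR-196 seed but holds the long complement that made it a textbook target of miR-196a. It is shown with the single G:U pair in lower case.
Hoxb8 3′ untranslated region, GRCm38 chr11:96284888-96284909, plus strand: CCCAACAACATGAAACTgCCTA
All 22 bases face miR-196a-5p, 21 of them in standard pairs.

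At least part of each cluster was transcribed in NIH3T3 cells. An FPKM of at least 1 in every library was reached by 20 of the 39 Hox genes (51.3%), against 22.2% of all 55573 genes listed, 48.6% of 21903 protein-coding genes and 20.3% of 187 other protein-coding genes described as homeobox. The Hox share thus lay close to that of protein-coding genes in general. A further 2 genes, Hoxb4 and Hoxd3, passed the limit in 1 or 2 libraries. Another 9 stayed under 1 in every library but lay above 0 in at least 1, and 8 were listed at 0 throughout. By cluster, 8 of 11 Hoxa, 6 of 10 Hoxb, 3 of 9 Hoxc and 3 of 9 Hoxd genes passed in every library.

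No Hox gene was among the abundant transcripts. The highest Hox gene, Hoxb9, had 25.4 ± 1.13 FPKM (SD, n = 3) and ranked 5090 among the 12905 genes with a mean of at least 1, and 4892 protein-coding genes lay above it. The median over the 39 Hox genes was 1.21 FPKM, beside 0.830 over all protein-coding genes, so the Hox genes as a whole were not lower than these. Among the other homeobox genes the median was 0, and 10 exceeded Hoxb9, with Rhox5, a homeobox gene of the reproductive cluster on the X chromosome, highest at 194.9 FPKM. All Hox genes together summed to 147.9, 135.9 and 139.8 FPKM in libraries 1, 2 and 3.

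**Figure D1:**
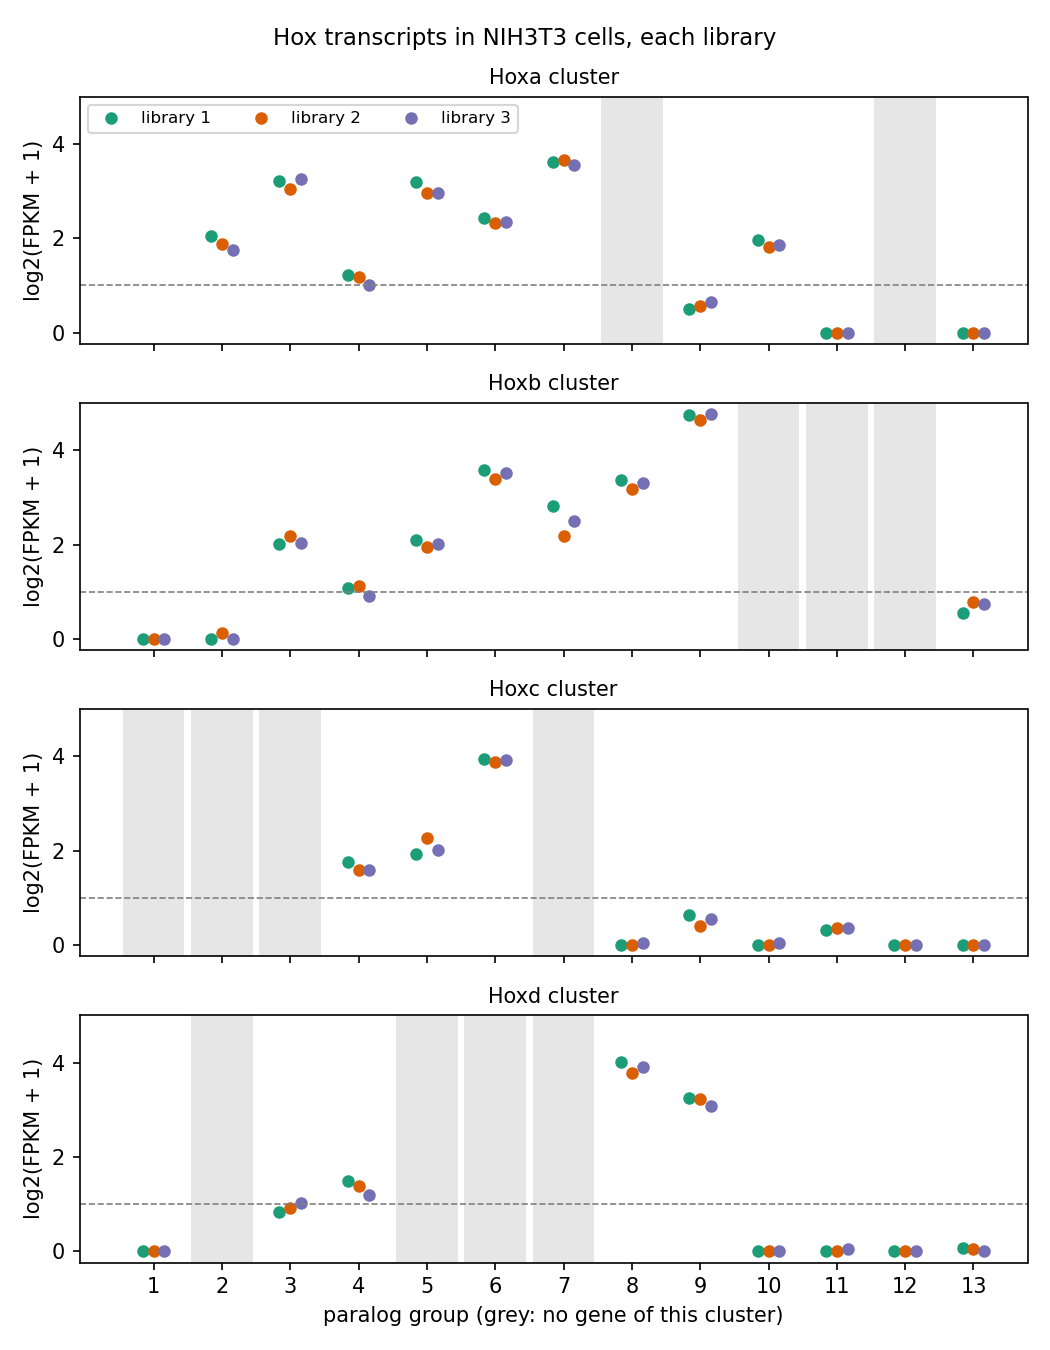
Level of Hox genes in each library, for the genes whose values are given one by one or as ranges, as log2(FPKM + 1) on the vertical axis, against the paralog group on the horizontal axis, with 1 panel per cluster. Grey bands mark groups in which a cluster has no gene, the dashed line marks an FPKM of 1, and points stand for single libraries. The points of all clusters are highest within groups 3 to 9 and lie under the line in groups 11 to 13.

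The plot of levels by paralog group shows that the highest gene was in group 7 for Hoxa, 9 for Hoxb, 6 for Hoxc and 8 for Hoxd. Grouped by position, the anterior genes (groups 1 to 3) summed to 16.6 ± 0.251 FPKM (SD, n = 3), the central genes (groups 4 to 8) to 86.6 ± 4.99 and the posterior genes (groups 9 to 13) to 38.0 ± 1.08. The central sum was 92.1, 82.6 and 85.0 FPKM in libraries 1, 2 and 3, and the posterior sum 38.9, 36.8 and 38.3, so these ranges did not overlap. Of the central genes 13 of 15 were at an FPKM of at least 1 in every library, with Hoxb4 and Hoxc8 as the exceptions. Of the anterior genes 4 of 8 passed, and of the posterior genes 3 of 16. Hoxb9 alone made up 66.7% of the posterior sum. Nearly all of the anterior sum came from gene models whose exons overlap other genes over at least 10% of their bases.

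Among anterior genes, which pattern the hindbrain and the pharyngeal arches, Hoxa3 was highest. Hoxa3, needed for the thymus and parathyroid glands, had 8.25, 7.21 and 8.57 FPKM in libraries 1, 2 and 3, with a mean of 8.01 ± 0.711 (SD, n = 3). Its group partner Hoxb3 had 3.05, 3.56 and 3.07 FPKM (3.23 ± 0.292), and Hoxd3, which acts on the upper cervical vertebrae, had 0.787, 0.887 and 1.05 (0.906 ± 0.130). The 3 group 3 genes therefore kept the order Hoxa3, Hoxb3, Hoxd3 in every library, with no overlap of their ranges. Exons of all 3 are partly overlapped by other annotated genes, to different degrees, and whether this affects the order was not tested. Hoxa2, the selector gene of the hyoid arch, had 3.12, 2.66 and 2.36 FPKM (2.72 ± 0.384). Hoxb1 and Hoxd1 were listed at 0, and Hoxb2 rested on 3 fragments, all in library 2. In group 2 the level thus came almost entirely from Hoxa2, which gave 98.9% of the group sum on average. Other annotated genes overlap 15.0% of the exon bases of Hoxa2 and 27.3% of those of Hoxb2.

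Genes of group 4, which act on the cervical vertebrae, were near the limit in all clusters. Hoxc4 had 2.37, 2.02 and 2.01 FPKM in the 3 libraries (2.13 ± 0.201, SD), Hoxd4 had 1.81, 1.59 and 1.28 (1.56 ± 0.266), and Hoxa4 had 1.35, 1.26 and 1.01 (1.21 ± 0.176). Hoxb4, known for expanding blood stem cells when forced, had 1.11, 1.17 and 0.872 (1.05 ± 0.158). The group 4 sum, 5.95 ± 0.735 FPKM, was the lowest of the central groups, and the lowest value of Hoxc4 lay above the highest of the other 3 genes.

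Group 5 was led by Hoxa5, which is required for the lung and the respiratory tract. It had 8.13, 6.79 and 6.74 FPKM (7.22 ± 0.786, SD, n = 3). Hoxc5 had 2.82, 3.81 and 3.04 FPKM (3.22 ± 0.517) and Hoxb5, which also acts in the enteric nervous system, had 3.26, 2.88 and 3.02 (3.05 ± 0.193). Hoxa5 lay above both in every library, whereas the ranges of Hoxc5 and Hoxb5 overlapped.

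Group 6 genes promote rib formation, and all 3 of them were clearly detected. Hoxc6 had 14.3, 13.7 and 14.3 FPKM (14.1 ± 0.360, SD, n = 3), Hoxb6 had 10.9, 9.46 and 10.5 (10.3 ± 0.756), and Hoxa6 had 4.36, 4.02 and 4.08 (4.15 ± 0.185). Their ranges did not overlap, so the order Hoxc6, Hoxb6, Hoxa6 held in every library. Divided by the longest isoform, Hoxc6 and Hoxb6 overlapped, with 9.12 and 9.14 FPKM in library 1, and Hoxc6 was higher in 2 of 3 libraries. The group 6 sum was 28.5 ± 1.27 FPKM.

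Groups 7 and 8 belong to the thoracic region. Hoxa7 had 11.2, 11.6 and 10.7 FPKM (11.2 ± 0.459, SD, n = 3), above Hoxb7 with 6.09, 3.53 and 4.63 (4.75 ± 1.28) in every library. Hoxd8 had 15.1, 12.7 and 14.0 FPKM (13.9 ± 1.21) and Hoxb8, known for holding blood progenitors in an immature state, had 9.28, 8.08 and 8.83 (8.73 ± 0.603). Hoxd8 was above Hoxb8 in each library without overlap, and the remaining member of the group, Hoxc8, which specifies motor neurons of the forelimb region, was represented by 1 fragment in library 3.

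Group 9 had the highest sum of all 13 groups, 34.4 ± 1.02 FPKM (SD, n = 3), and Hoxb9 accounted for 73.7% of it. Hoxb9, which with its paralogs shapes the rib cage, had 25.8, 24.1 and 26.2 FPKM. Hoxd9, a gene of the forelimb and the lumbosacral region, had 8.44, 8.38 and 7.49 (8.11 ± 0.531). Hoxa9, a partner of Meis1 in leukaemia, had 0.416, 0.477 and 0.559 FPKM on 31 fragments, and Hoxc9 had 0.553, 0.333 and 0.465 on 29. The 4 paralogs thus fell into a higher pair and a low pair, and the low pair also had fragments in every library.

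Beyond group 9, Hoxa10, a regulator of the uterus and the lumbar vertebrae, was the only gene at an FPKM of at least 1, with 2.87, 2.50 and 2.61 FPKM (2.66 ± 0.191, SD, n = 3). Hoxb13, the tail-most gene of its cluster and a factor of the prostate, had 0.471, 0.714 and 0.665 FPKM on 58 fragments, and Hoxc11 had 0.240, 0.284 and 0.277 on 23. Hoxc10 and Hoxd11 each had 1 fragment and Hoxd13, a gene of the digits, had 3. Hoxa11, Hoxa13, Hoxc12, Hoxc13, Hoxd10 and Hoxd12 were listed at 0, together with Hoxb1 and Hoxd1 from the head end. For these 8 genes the limit that 3 fragments over the libraries would give lies between 0.0277 and 0.0682 FPKM, so they were not detectable at this depth, and lower levels remain possible. Such limits and the intervals given with ratios cover counting error only.

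The order of the 21 genes with a mean of at least 1 was examined between neighbours. Of the 20 neighbouring pairs, 6 had library ranges that did not overlap, and 14 overlapped. The separated steps were Hoxb9 over Hoxc6, Hoxd8 over Hoxa7, Hoxb6 over Hoxb8, Hoxa5 over Hoxb7, Hoxa6 over Hoxb3 and Hoxa10 over Hoxc4. Hoxb9 exceeded Hoxc6 by a factor of 1.80 ± 0.0394 (SD, n = 3), the widest of these steps. Hoxc6 and Hoxd8 did not differ beyond their spread, with a ratio of 1.02 ± 0.0642 and Hoxc6 higher in 2 of 3 libraries. Pairs with overlapping ranges are not shown to be equal. The order also depended on the length used. With the longest isoform, 5 of the 6 separated steps stayed apart, whereas Hoxa10 (1.75 FPKM) fell below Hoxc4 (2.06), and the means of 9 of the 20 pairs changed order.

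**Figure D2:**
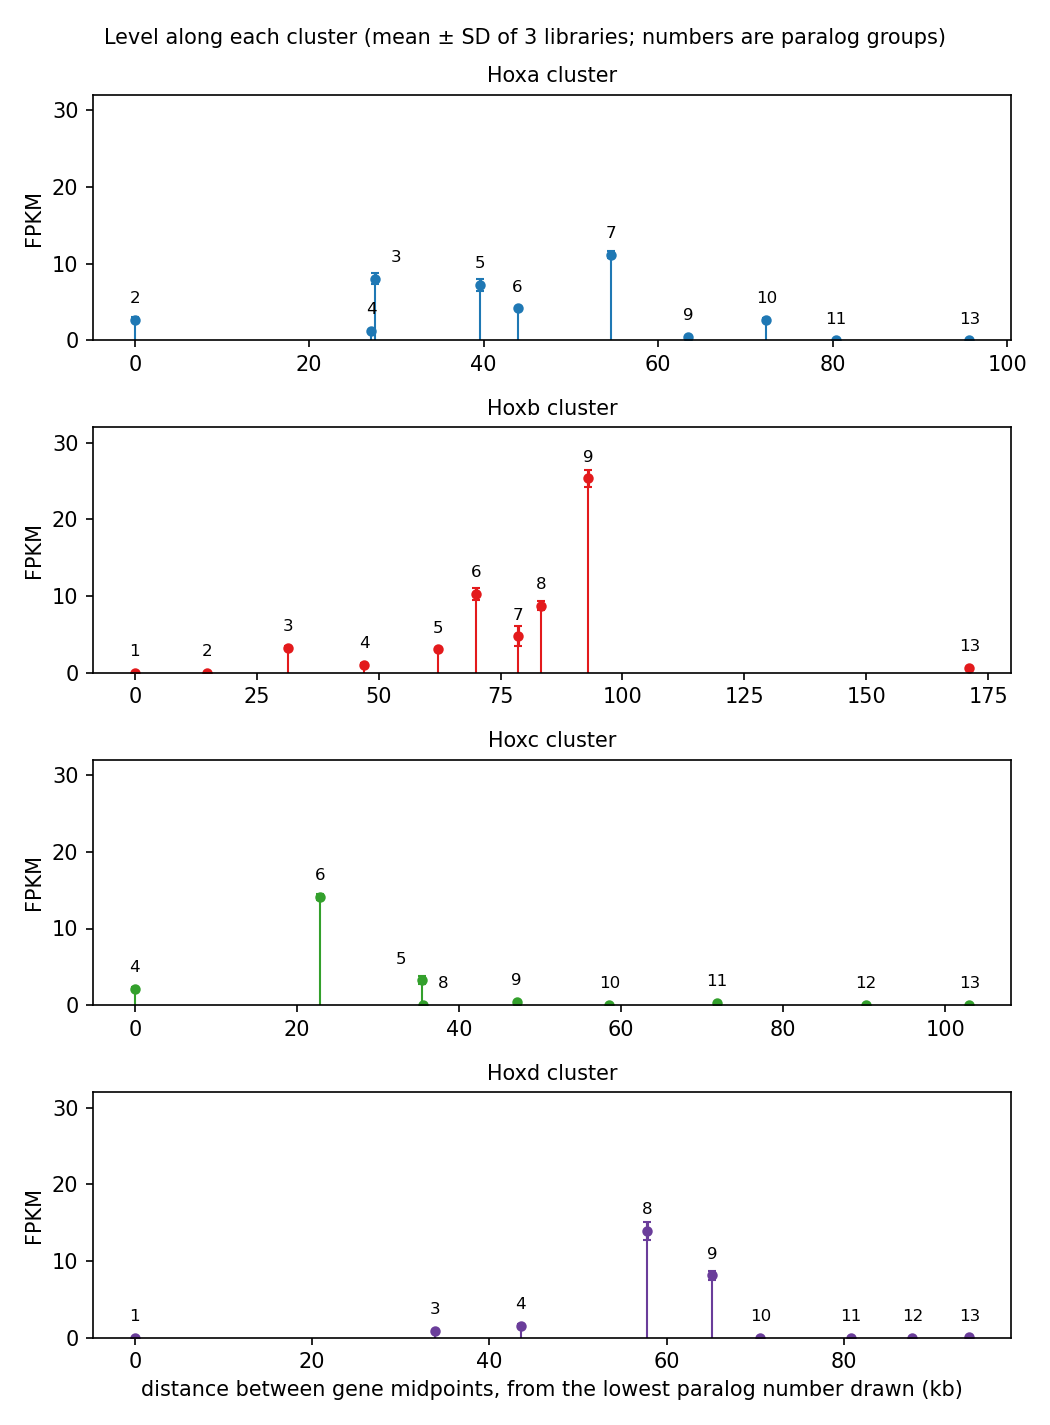
Mean FPKM (points, bars show the SD of 3 libraries) of each Hox gene on the vertical axis against the distance of its annotated midpoint from that of the lowest-numbered gene drawn in its panel, in kb, on the horizontal axis, with 1 panel per cluster and the paralog group beside each point. The level drops steeply after group 6 on Hoxc and after group 9 on Hoxd. Hoxa has a gene above both its neighbours at group 10, and Hoxb has a peak at group 9.

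The plot along the clusters shows where the level dropped steeply between neighbours. Hoxa3 and Hoxc5 stand out of numerical order there, because long isoforms stretch their annotated genes past several neighbours and move the midpoints. The Hoxc5 model runs over Hoxc6, Hoxc8 and Hoxc9 and shares 5.37% of its exon bases with Hoxc10. On the Hoxc cluster Hoxc6 and Hoxc8 are 4.145 kb apart and had 605 fragments and 1 fragment over the 3 libraries. Per length this is a ratio of 1232, with an exact 95% interval for counting error of 220.2 to 48728. With the longest isoforms the ratio was 851. On the Hoxd cluster Hoxd9 had 739 fragments and Hoxd10, 2.621 kb away, had 0, so Hoxd9 was at least 209-fold higher against a floor of 3 fragments over the libraries. Beyond the drop on Hoxc the level was not 0 throughout, since Hoxc9 with 29 fragments lay above Hoxc8 by a factor of 39.5 (6.54 to 1611), and Hoxc11 had fragments in every library. Both drops thus separate a clearly detected gene from a neighbour at or near 0 within a few kb, but they lie at different paralog numbers. The steps given ratios here and below were picked from these same levels and not by a rule set beforehand. Their intervals do not allow for that choice.

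The Hoxa cluster had an interrupted pattern as well. Hoxa7 and Hoxa9, 1.245 kb apart, had 580 and 31 fragments, a ratio per length of 23.1 (exact 95% interval 16.1 to 34.3). With the longest isoforms the ratio was 29.7. Hoxa10 then exceeded Hoxa9 again by a factor of 5.50 (3.75 to 8.33), or 7.79 with the longest isoforms. Hoxa11, 1.251 kb further, had 0 fragments, so Hoxa10 was at least 83.1-fold higher, or 57.1-fold with the longest isoforms. Exons of Hoxa11os cover 35.0% of the exon bases of Hoxa11, which the floor of 3 fragments does not take into account. At the head end no such gap was seen, since Hoxa2 and Hoxa3 were both detected.

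On the Hoxb cluster transcripts of the head end were at or near 0 and the level rose toward group 9. Hoxb3 had 213 fragments against 3 for Hoxb2, 2.594 kb away, a ratio of 109 (exact 95% interval 36.9 to 533.8), or 69.8 with the longest isoforms. Exons of the antisense gene Hoxb3os cover 27.3% of the exon bases of Hoxb2 and 52.9% of those of Hoxb3, which the interval does not take into account. From Hoxb8 to Hoxb9 the level rose by a factor of 2.91 ± 0.109 (SD, n = 3), and by 4.87 ± 0.183 with the longest isoforms. Hoxb13 lies 74.0 kb beyond Hoxb9 and was 41.2-fold lower (31.8 to 54.4). The rise toward Hoxb9 was not even, since Hoxb4 lay below Hoxb3 and Hoxb7 below Hoxb6 in every library.

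Because Hoxd9 and Hoxd10 are neighbours on either side of the drop on Hoxd, the sequence before their starts is shown, with CG dinucleotides in capitals. The sequences are from RefSeq (GRCm38.p6) and end before the annotated gene.
Hoxd9, chr2:74697513-74697726, plus strand: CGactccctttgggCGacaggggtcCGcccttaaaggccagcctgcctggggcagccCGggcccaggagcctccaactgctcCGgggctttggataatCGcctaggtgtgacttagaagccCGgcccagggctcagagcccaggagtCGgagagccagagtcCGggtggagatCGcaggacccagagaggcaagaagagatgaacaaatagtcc
Hoxd10, chr2:74691641-74691890, plus strand: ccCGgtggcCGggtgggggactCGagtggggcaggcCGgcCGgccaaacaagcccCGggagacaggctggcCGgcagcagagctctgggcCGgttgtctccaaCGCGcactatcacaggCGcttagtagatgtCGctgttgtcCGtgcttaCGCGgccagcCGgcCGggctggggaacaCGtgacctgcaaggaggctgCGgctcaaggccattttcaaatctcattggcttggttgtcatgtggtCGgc
In windows of equal extent around the start (250 bases before and 50 after), Hoxd9 holds 20 CG dinucleotides and Hoxd10, the gene listed at 0, holds 22, so the count hardly differed. The stretches printed are of unequal length and are not compared.

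Of the 39 Hox genes, 22 were matched to 24 promoters (250 bases before and 50 after the start). The promoters held a median of 14.5 CG dinucleotides, beside 7 over all 32851 promoters. For Hox genes whose mean reached an FPKM of 1 the median was 13 (13 promoters), and for those below 1 it was 20 (11 promoters). These medians count promoters and not genes, and Hoxa10 and Hoxd11 entered more than once. No promoter was matched for Hoxb9, Hoxc6 or Hoxb6, which are among the highest Hox genes, and the difference was not tested. The letters TATAAA, searched on both strands, were found in 4 of the Hox promoters (16.7%) and in 13.6% of all promoters. Single genes of both kinds lay under the median of all promoters, among them Hoxd8 with 6 and Hoxa9 with 4. These letters say nothing of methylation, which was not measured.

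The summed levels of the clusters were then compared within each library. The sum was 60.0, 53.6 and 57.8 FPKM for Hoxb (57.1 ± 3.27, SD, n = 3) and 41.4, 38.6 and 38.0 for Hoxa (39.3 ± 1.82). For Hoxd it was 26.2, 23.6 and 23.8 (24.5 ± 1.44) and for Hoxc 20.3, 20.1 and 20.1 (20.2 ± 0.117). The order Hoxb, Hoxa, Hoxd, Hoxc held in all 3 libraries and none of these ranges overlapped. The clusters made up 40.4%, 27.9%, 17.4% and 14.3% of the Hox sum in that order.

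On the log2(sum + 1) scale Hoxb exceeded Hoxc by 1.45 ± 0.08 (SD, n = 3), Hoxd by 1.19 ± 0.05 and Hoxa by 0.53 ± 0.06, Hoxa exceeded Hoxc by 0.93 ± 0.06 and Hoxd by 0.66 ± 0.02, and Hoxd exceeded Hoxc by 0.27 ± 0.07. All 6 differences exceeded their SD. Under the exact permutation test of signs (two-sided), p was 0.25 for each and the adjusted p over the 6 was 0.25, which is the smallest value that 3 libraries allow. The place of Hoxa rested on genes whose exons overlap other annotated genes, among them Hoxa3 and Hoxa7. Leaving such genes out lowers the Hoxa sum by construction and takes nothing from Hoxc. The effect of overlap on the levels was therefore not tested. When the 10 Hox genes with such overlap over at least 10% of their exon bases were left out, which was decided on after seeing the data, Hoxa fell below Hoxc by 0.30 and below Hoxd by 0.42 on the log2 scale.

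**Figure D3:**
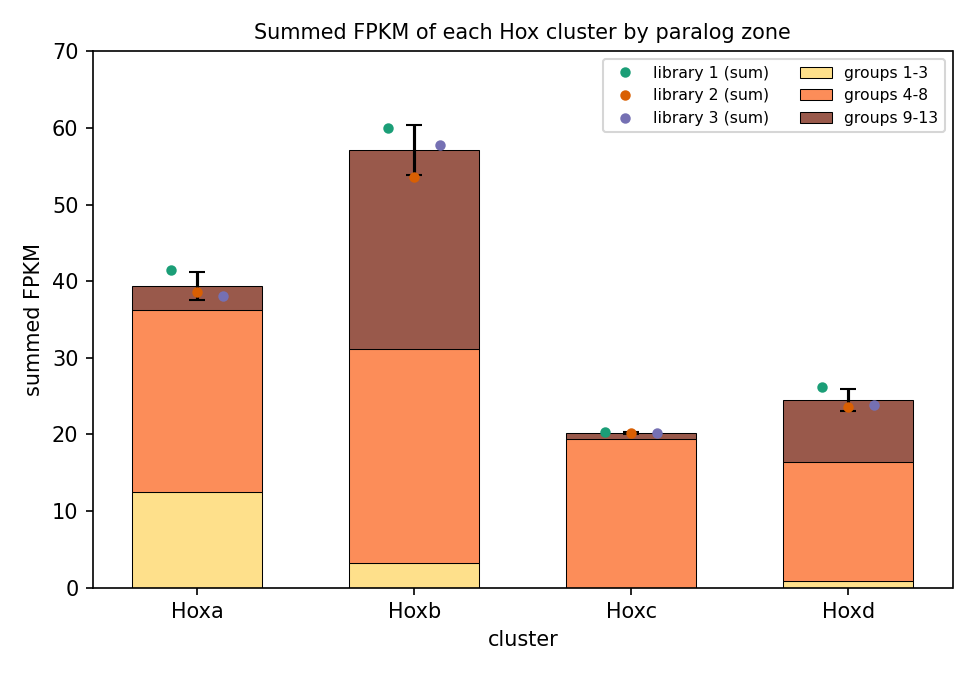
Summed FPKM of the Hox genes of each cluster on the vertical axis, stacked by paralog zone. Bars are means of 3 libraries, error bars the SD of the cluster sum, and points the single libraries. Hoxb is highest (57.1) and Hoxc lowest (20.2), and Hoxc consists almost wholly of groups 4 to 8.

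The plot of cluster sums shows that the clusters differed in make-up as well as in size. Hoxa gave 12.5 of the 16.6 FPKM of the anterior zone, and Hoxb gave 26.0 of the 38.0 FPKM of the posterior zone. The highest gene held 69.8% of its cluster's sum for Hoxc6, 56.7% for Hoxd8, 44.4% for Hoxb9 and 28.4% for Hoxa7. By this measure the Hoxa sum was the most evenly spread of the 4. With the highest gene of each cluster left out, also a setting chosen afterwards, the order of the clusters was kept.

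The gene models set limits on single values. For 23 Hox genes no exon overlaps another annotated gene, 9 are overlapped on the same strand and 10 on the opposite strand, and no source used here states whether strand was used in counting. Hoxd3 shares 62.3% of its exon bases with same-strand genes, mainly Gm28230, a model that joins Hoxd3 and Hoxd4, which had 0.359 FPKM. Hoxd4 is overlapped over 52.3% on the same strand, so the split of fragments between Hoxd3 and Hoxd4 is uncertain. Hoxb3 is overlapped over 52.9% by the antisense gene Hoxb3os, which had 0.241 FPKM, and Hoxa3 over 25.4% by antisense genes. Hoxa7 is overlapped over 20.4% by the antisense gene Hoxaas3, which had 1.70 FPKM.

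The length by which fragments are divided also matters, because the deposited values follow the mean length of a gene's isoforms. Dividing by the longest isoform instead lowered 9 of the 21 genes with a mean of at least 1 by over 1.5 times. Hoxc6 then had 8.96 FPKM, Hoxd8 8.72, Hoxa7 6.69, Hoxa3 5.07, Hoxb8 4.90, Hoxb7 3.06, Hoxc5 1.95, Hoxa10 1.75 and Hoxb3 1.57. Hoxb9 stayed highest with 23.9. Hoxa5, with 7.22, then had the highest mean of its cluster, but its library range overlapped that of Hoxa7. In library 2 Hoxa7 was the higher, with 6.95 against 6.79 FPKM.

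Several non-coding RNA genes of the clusters were transcribed as well. Mir196a-1 (chr11:96265164-96265265), between Hoxb13 and Hoxb9, had 78.8, 71.6 and 78.1 FPKM (76.2 ± 3.97, SD, n = 3) on 332 fragments. Its annotated 102 bases are shorter than the reads of 150 nt, so these fragments count RNA over this place and not the mature microRNA printed above. Mir196a-2 and Mir196b were listed at 0, Mir10a had 7 fragments, Mir615 had 4 and Mir10b had 1. Mir196b aside, whose 85 bases all lie in exons of Hoxa9, fragments of the microRNA genes were thus concentrated at the one beside Hoxb9. A lincRNA just before it, Gm53 (chr11:96251105-96264868, plus strand), which was singled out after its values were seen, had 43.2, 43.2 and 44.6 FPKM (43.7 ± 0.802) on 2472 fragments, above every Hox gene.

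Among the named Hox-cluster RNAs, Hoxb5os had 9.01, 7.41 and 7.97 FPKM (8.13 ± 0.812, SD, n = 3). Hoxd3os1 had 5.76, 5.87 and 3.87 (5.16 ± 1.12), and Hotairm1, an RNA of the head end of the Hoxa cluster known from myeloid cells, had 2.72, 3.75 and 3.51 (3.33 ± 0.538). Hoxaas3 and Hoxaas2 had means of 1.70 and 1.41 FPKM, and Haglr had 0.843. Hotair, an RNA of the Hoxc cluster known for its link with the Polycomb complex, had 0.293 FPKM on 25 fragments. Halr1 had 2 fragments, and Hottip and Hoxa11os, at the tail end of Hoxa, were listed at 0. Both lay beside Hox genes at 0, and exons of Hoxa11os cover 35.0% of the exon bases of Hoxa11. This did not hold throughout the clusters. Haglr, next to Hoxd1 at 0, had 44 fragments. Mir196b was listed at 0, but all its 85 bases lie in same-strand exons of Hoxa9, which had 31 fragments. Fragments over Mir196b could not be told from those of Hoxa9, so its 0 is not informative here.

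Transcription on the flanks of the clusters differed from side to side. The nearest protein-coding neighbours beyond the head ends of Hoxd and Hoxa were Mtx2 with 41.8 ± 1.62 FPKM (SD, n = 3) and Skap2 with 19.5 ± 1.03. At the tail ends, Evx1 beside Hoxa13 and Evx2 beside Hoxd13 were listed at 0. Hoxb lay between Ttll6 with 0.0834 FPKM and Skap1 with 0.137, and Hoxc between Calcoco1 with 93.2 ± 1.12 and Smug1 with 11.7 ± 0.807. At some ends where the outermost Hox gene was listed at 0, the nearest protein-coding neighbour was thus detected, though the distances differed widely. Calcoco1 lies 198.9 kb from Hoxc13 and Mtx2 60.7 kb from Hoxd1. Of the neighbours at 0, Evx1 lies 52.6 kb from Hoxa13 and Evx2 8.75 kb from Hoxd13.

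**Figure D4:**
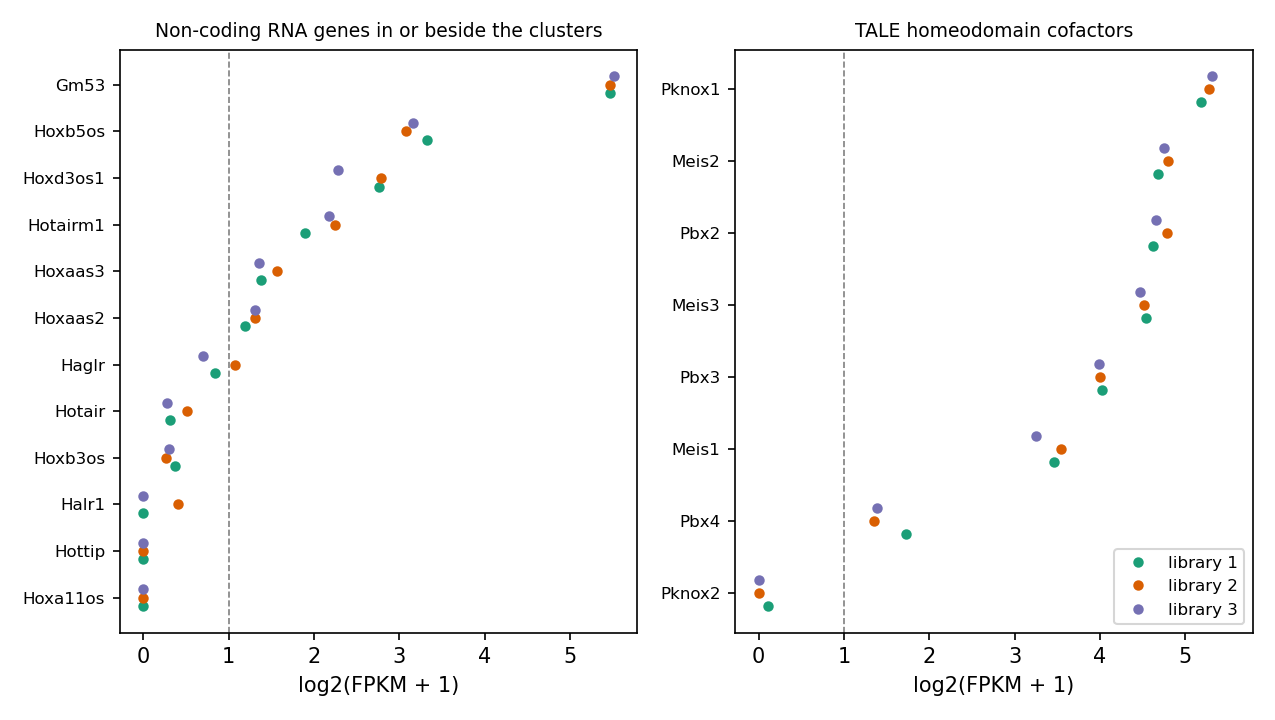
Left, 12 non-coding RNA genes in or beside the Hox clusters, right, TALE homeodomain cofactor genes. The horizontal axes give log2(FPKM + 1), points are single libraries and the dashed line marks an FPKM of 1. Gm53 and Hoxb5os lead the left panel, and all the cofactor genes drawn except Pknox2 lie above the line in every library.

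The plot of partner genes shows the TALE cofactors, which bind DNA together with Hox proteins. Of 9 such genes, 8 were at an FPKM of at least 1 in every library. Pknox1 was highest with 35.4, 37.8 and 38.6 FPKM (37.3 ± 1.67, SD, n = 3), and Pknox2 lowest with 2 fragments in library 1. Meis2 had 25.8 ± 1.05 FPKM, Pbx2 24.8 ± 1.58, Meis3 21.7 ± 0.597, Pbx3 15.0 ± 0.204 and Meis1 9.73 ± 1.08. All 3 cofactor families were therefore represented. Pknox1 lay above the highest Hox gene, Hoxb9, in every library, while Meis2 and Pbx2 did not differ from it beyond their spread.

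Of 13 regulators of Hox transcription, 9 passed the same limit, with a median of 37.9 FPKM. Rarg, a receptor for retinoic acid, was highest with 157.4 ± 2.34 FPKM (SD, n = 3), while its relative Rarb had 0.188 on 12 fragments. Kmt2a, the methyltransferase that keeps Hox genes active, had 41.3 ± 1.52 FPKM, and Ezh2, the catalytic subunit of the Polycomb complex that represses them, had 37.9 ± 1.40. The caudal-type factors Cdx1, Cdx2 and Cdx4, which switch on central Hox genes in the embryo, were all listed at 0. Of 10 homeobox genes related to the Hox genes, 0 passed the limit, 7 were listed at 0, and Gbx1 was highest with 0.149 FPKM.

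**Figure D5:**
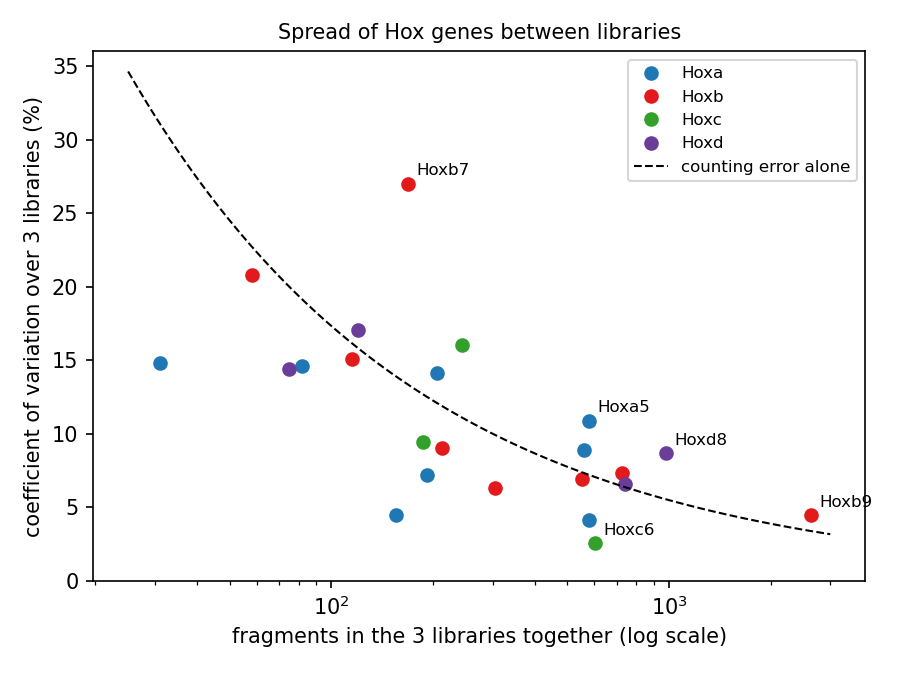
Coefficient of variation over the 3 libraries, in percent, on the vertical axis against the total fragments of Hox genes with at least 30 fragments on a logarithmic horizontal axis. Points are genes coloured by cluster and the dashed line is the SD expected from counting error, in percent of the mean. Among these genes Hoxb7 stands farthest above the line.

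The plot of spread sets each gene beside its counting error. Over the 20 genes at an FPKM of at least 1 in every library, the coefficient of variation was 2.55% (Hoxc6) to 27.0% (Hoxb7). Its median was 8.77%, and that of the SD expected from counting error, as a share of the mean, was 10.5%. A coefficient from 3 values falls below the expected SD more often than not, so these medians are not compared. The variation exceeded the counting value in 11 of 20 genes (55%), against 39.8% of the 7502 genes with fragments in the same range. Among the 24 Hox genes with at least 30 fragments, 1 (4.17%) had fragments that differed between libraries past the 95% chi-square limit. That share was 9.48% over all 13632 genes with so many fragments and 7.64% over those up to the highest Hox total. The gene was Hoxb7, with 73, 41 and 55 fragments (chi-square 8.16), a coefficient of variation of 27.0% beside 13.3% from counting. One gene in 24 past such a limit is no more than the background share.

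The highest of the 3 values fell in library 1 for 14 of the 20 genes (70%), in library 2 for 4 and in library 3 for 2. Over the 7502 genes of the same fragment range, library 1 was highest for 35.6%. The Hox sum was likewise highest in library 1, at 147.9 FPKM. Neither was tested, because 3 libraries of 1 condition allow no comparison and the genes of a library are not replicates. Across the 39 genes, which share their libraries, Pearson's r between libraries was 0.9946 to 0.9967.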

How the data were processed

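The authors checked total RNA of NIH3T3 cells for quality and then prepared libraries, in what the paper calls UMI-mRNA sequencing. These libraries were sequenced by Illumina NovaSeq as paired-end reads of 150 nt. According to the methods and the submitters' processing notes, UMIs were handled with UMI-tools (1.0.0), reads were mapped with HISAT2 (2.0.4), copies sharing place and UMI were removed, and genes were counted with HTSeq (0.6.1). The build and annotation used for counting are not given in the sources used here. The authors deposited FPKM per library, and 0 value columns were left unused.

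Values were used as deposited, without a filter or scaling. FPKM are no counts, so count models were not used. Fragments were recovered from the FPKM steps with GENCODE M21 mean isoform lengths, which matched 55394 of 55573 gene IDs. Over 99.1% of the values above 0 came out whole within 0.001, and the recovery was checked on simulated data. Ratios used a pseudocount of 1 and an exact sign-flip test, and intervals were exact at 95%. Python 3.11.15, numpy 2.4.6, pandas 2.3.3, scipy 1.17.1 and matplotlib 3.10.9 were used. Alternatives were the length, the scale, the limit, the pseudocount, the genes summed and each library left out. Named genes were all Hox genes with a mean of at least 1, the highest of each cluster, overlapping, flanking and cluster RNA genes, and list extremes. The members and lists were chosen with earlier results of these data known. Values of a few genes are not reported here or drawn.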

Additional observations from a re-analysis of the deposited data

How the results depend on the processing

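Of 220 values recomputed under alternatives, 158 stayed the same, 60 moved and 2 reversed. The same means within the spread between libraries, on their side or, for counts of genes, within a set factor of the main count. Rescaled to 1000000 per library (TPM), the sums of Hoxa, Hoxb, Hoxc and Hoxd became 57.0, 82.7, 29.3 and 35.5, and those of the anterior, central and posterior zones 24.1, 125.4 and 55.1. With the longest isoform they became 30.7, 46.3, 13.6 and 18.5, and 11.6, 62.3 and 35.2. A limit of 10 FPKM left 4 genes. The count of 20 genes became 26 at a limit of 0.1 FPKM and 14 without the 10 genes with exon overlap of at least 10%, and both lay within the set factor. Summing only genes with a mean of at least 1 gave 19.5 for Hoxc, 15.7 for the anterior and 36.1 for the posterior zone. Without the highest gene of each cluster, a setting chosen after seeing the data, the cluster sums were 28.2, 31.8, 6.10 and 10.6. Without the 10 genes with exon overlap of at least 10%, also chosen after seeing the data, Hoxa was 16.3, Hoxd 22.0, the anterior zone 1.74 and the central zone 72.6, and the log2 ratio of Hoxa to Hoxc became -0.30 and that of Hoxa to Hoxd -0.42. By construction these sums lack Hoxa3 and Hoxa7. Leaving out each library in turn kept 20 to 21 genes past the limit, and every ratio between clusters kept its sign. Of 105 gene means under alternatives, 34 moved, 21 of them upward. The directions were fixed by the settings, since all upward moves came from TPM, which raised every value. The others came from the longest isoform, which can only lower a value. No paired analysis was possible because all 3 libraries share 1 condition. Depth limits the 8 genes listed at 0 and the 5 genes with 1 to 3 fragments, and 3 libraries cannot give a p below 0.25.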
